A study of Mus musculus with 5 samples.

Results

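The genes described are acyl-CoA thioesterases and coenzyme A (CoA) hydrolases: Acot1, Acot2, Acot3, Acot4, Acot8, Acot12, Nudt7 and Nudt19. All non-control probes whose RefSeq accession maps to one of these 8 symbols were taken, which gave 10 of the 41174 probes on the array, with 2 probes each for Acot4 and Nudt7 and 1 for each other gene. The data are 5 two-colour Agilent arrays, each on a slide of its own, of total RNA from the liver of male C57BL/6N mice that received an ethanol diet for 8 weeks followed by 3 ethanol binges of 5 g per kg. Liver cDNA carried Cy5 (red) and a purchased mouse RNA, named as an assorted total RNA with liver as its tissue, carried Cy3 (green) on every array. The labels used here state no age. The 5 samples form 1 group, called livers 1 to 5, and no control diet was analysed here, so each value below sets a liver against the reference RNA and none measures an effect of ethanol. Nothing in the labels says whether the samples are separate mice. The spread over these 5 RNAs, which enters the p-values of the mean ratios as part of their error, could therefore be technical.

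Acyl-CoA thioesterases split an activated fatty acid into the free acid and CoA, and so oppose the acyl-CoA synthetases and help to set how much CoA is bound to fatty acids in a compartment. Acot1 acts in the cytosol and Acot2 in mitochondria, while Acot3, Acot4 and Acot8 are peroxisomal and Acot12 is a cytosolic hydrolase of acetyl-CoA. Nudt7 and Nudt19 are peroxisomal Nudix hydrolases that cut CoA itself, and acyl-CoAs, at the diphosphate. In liver, several Acot genes are known targets of PPARA, the fatty acid receptor that drives fat oxidation, and the Acot1 to Acot6 genes are close paralogs. In the RefSeq annotation Acot2, Acot1, Acot4, Acot3, Acot5 and Acot6 follow one another on chromosome 12, with only Gm40474 (a lncRNA) and the pseudogene Gm8385 annotated between them. Probe sequences were not used here, so signal shared between these paralogs was not assessed.

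Promoter windows of the 5 genes that lay below the reference are shown, because PPARA, with its partner RXR, binds paired copies of the letters AGGTCA and several Acot genes are known targets of it. They come from RefSeq (GRCm38.p6), 250 bases before to 50 bases after the first listed start of each gene, and all 8 members matched an entry. Capitals mark AGGTCA read on either strand, which appears as TGACCT when it lies on the opposite strand.
Nudt7, chr8:114133368-114133667, plus strand: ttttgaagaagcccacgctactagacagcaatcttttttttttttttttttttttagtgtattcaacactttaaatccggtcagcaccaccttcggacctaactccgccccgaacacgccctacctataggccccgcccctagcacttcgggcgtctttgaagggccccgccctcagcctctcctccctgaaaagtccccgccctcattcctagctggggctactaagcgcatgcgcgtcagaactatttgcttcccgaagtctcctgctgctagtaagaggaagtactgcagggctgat
Acot1, chr12:84009252-84009551, plus strand: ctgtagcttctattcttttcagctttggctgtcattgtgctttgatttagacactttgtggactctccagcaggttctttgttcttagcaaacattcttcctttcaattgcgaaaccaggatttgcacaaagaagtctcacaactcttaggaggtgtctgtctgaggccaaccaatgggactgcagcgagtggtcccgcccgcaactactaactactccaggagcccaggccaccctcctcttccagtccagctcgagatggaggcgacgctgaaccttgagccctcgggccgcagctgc
Acot4, chr12:84038129-84038428, plus strand: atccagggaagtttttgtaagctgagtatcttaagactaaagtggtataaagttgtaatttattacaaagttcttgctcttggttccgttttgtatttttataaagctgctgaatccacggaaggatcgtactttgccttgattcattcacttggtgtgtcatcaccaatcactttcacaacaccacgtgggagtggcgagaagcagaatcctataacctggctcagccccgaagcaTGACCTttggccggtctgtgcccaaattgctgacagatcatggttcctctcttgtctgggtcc
Acot3, chr12:84051894-84052193, plus strand: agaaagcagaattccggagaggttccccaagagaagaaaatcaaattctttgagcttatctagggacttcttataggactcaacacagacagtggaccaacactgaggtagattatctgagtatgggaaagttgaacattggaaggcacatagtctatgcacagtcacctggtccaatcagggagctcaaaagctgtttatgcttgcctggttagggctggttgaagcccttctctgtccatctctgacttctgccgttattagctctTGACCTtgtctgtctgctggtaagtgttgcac
Acot12, chr13:91741271-91741570, plus strand: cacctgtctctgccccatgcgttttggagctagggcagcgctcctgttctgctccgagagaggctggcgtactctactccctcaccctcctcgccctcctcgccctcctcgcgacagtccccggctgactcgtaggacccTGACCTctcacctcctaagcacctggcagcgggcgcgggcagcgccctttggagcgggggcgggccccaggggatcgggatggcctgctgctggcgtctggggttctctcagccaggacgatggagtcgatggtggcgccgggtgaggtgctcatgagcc
AGGTCA was found in 3 of the 8 member promoters, in Acot4 at 13 bases before the start, in Acot12 at 110 bases before it and in Acot3 at base 19 after it. It stood in 16.0% of the 27025 gene promoters of the same length. A DR1 element, searched on both strands as a pair of AGGNCA copies spaced by 1 base, was in 0 of the 8 windows and in 0.381% of all promoters. A match is a run of letters and not a measured binding site.

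A log2 ratio below 0 means less signal in the liver than in the reference. Ratios come from spot intensities corrected for background and normalized by loess within each array, and the mean over livers was tested against 0 with limma, with Benjamini-Hochberg adjustment over all 31887 tested probes. Testing required at least 3 usable values and a signal well above background, in Cy5 or Cy3, on at least 3 arrays, and a gene was read from its brightest tested probe. Of the 10 member probes 9 were tested, and all 8 genes had at least 1. In these 9 probes, 35 of 43 ratios were negative, but these ratios share 5 arrays and include both Acot4 probes, so they are not independent. By gene, 7 of the 8 members had a negative mean, as did 7930 of the 14917 named genes tested.

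Of the 8 genes, 5 lay below the reference at an adjusted p below 0.05 in limma, namely Nudt7, Acot3, Acot1, Acot12 and Acot4, against 13.0% of the 14917 named genes tested. None lay above it, where 14.5% of named genes did. Counted by probe, 6 of the 9 tested member probes were below (11.5% of all tested probes) and none above (16.2%). With a ratio of at least 2-fold also required, Nudt7 was the 1 member called lower, against 0.429% of named genes, and 0 members were called higher, against 0.871%. By probe, these calls were 1 of 9 lower (0.320% of all tested probes) and 0 higher (1.20%). Acot2, Acot8 and Nudt19 did not pass. The median log2 ratio of the 8 genes was -0.53, beside -0.02 for all named genes tested.

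**Figure D1:**
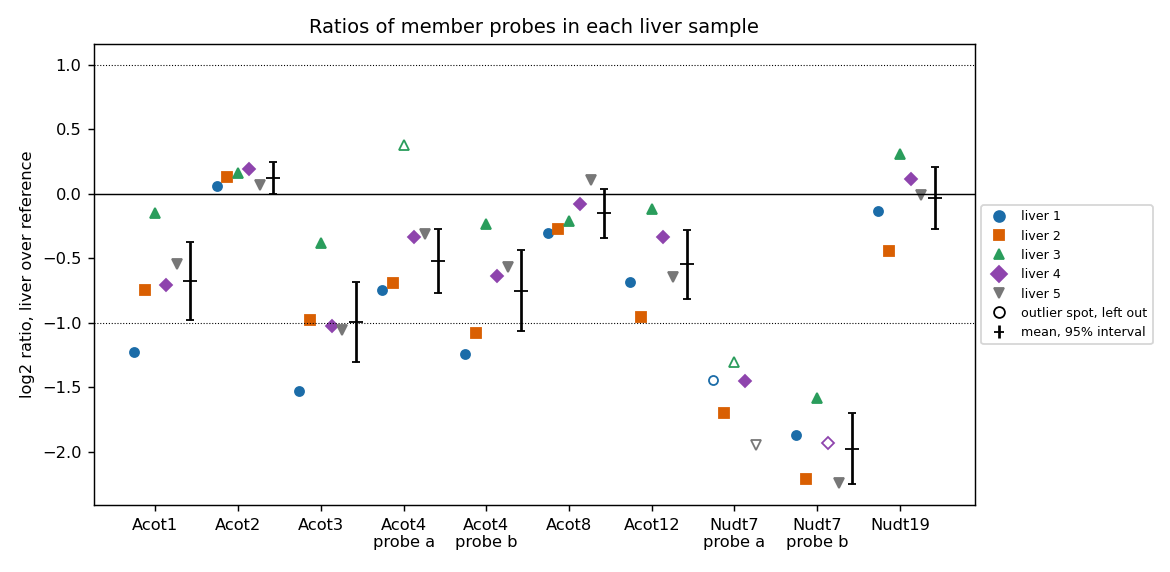
Log2 ratio of liver over reference (vertical axis) of the 10 member probes, 1 symbol per liver. Open symbols are spots marked as outliers and left out, bars give the fitted mean with its 95% interval for the 9 tested probes, and dotted lines mark 2-fold. Both Nudt7 probes lie below -1 in every liver, and Acot2, Acot8 and Nudt19 lie around 0.

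Nudt7, the CoA diphosphatase of liver peroxisomes, stood furthest from the reference in the ratios reported here. With the processed intensities of the scanner software the dim Acot3 probe lay as far, at -2.04 beside -2.03 for Nudt7. Its tested probe (A_52_P136914, probe b) had log2 ratios of -1.87, -2.21, -1.59 and -2.24 in livers 1, 2, 3 and 5. The spot in liver 4 was marked as an outlier and left out, and it read -1.94 when outlier spots were kept. All 5 livers thus lay below the reference by more than 2-fold. The mean was -1.98 ± 0.31 (SD, n = 4), or 3.94-fold lower, with a 95% interval from -2.26 to -1.70 and a limma adjusted p of 0.000108. The raw Cy5 intensities of this probe were 1349.5, 1565, 3631, 2406 and 1990.5 in livers 1 to 5. The raw Cy3 intensities of the reference were 5041, 7592, 9363, 11324 and 13554.5 on the same arrays. Each reference value was thus higher than the liver value beside it before any normalization.

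The other Nudt7 probe (A_51_P148670, probe a) was brighter, but 3 of its 5 spots were marked as outliers, and it was not tested. Its usable log2 ratios were -1.70 in liver 2 and -1.45 in liver 4. With outlier spots kept they were -1.44, -1.73, -1.30, -1.47 and -1.95 in livers 1 to 5, a mean of -1.58 ± 0.26 (SD, n = 5) and 2.99-fold lower, with a limma adjusted p of 8.9e-05. Both probes were therefore more than 2-fold lower in every liver. With outlier spots kept, probe a read closer to 0 than probe b by 0.29 to 0.51 (log2) per liver. Both probes carry the accession NM_024437.

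Nudt19, the related peroxisomal CoA hydrolase that is best known from kidney, did not pass. Its log2 ratios were -0.13, -0.44, 0.31, 0.11 and -0.01 in livers 1 to 5, with both signs among the livers. The mean was -0.03 ± 0.28 (SD, n = 5), with a 95% interval from -0.28 to 0.21 and a limma adjusted p of 0.846. In the 4 livers with a value for both genes, Nudt7 probe b lay below Nudt19, and the ranges of the genes did not overlap.

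**Figure D2:**
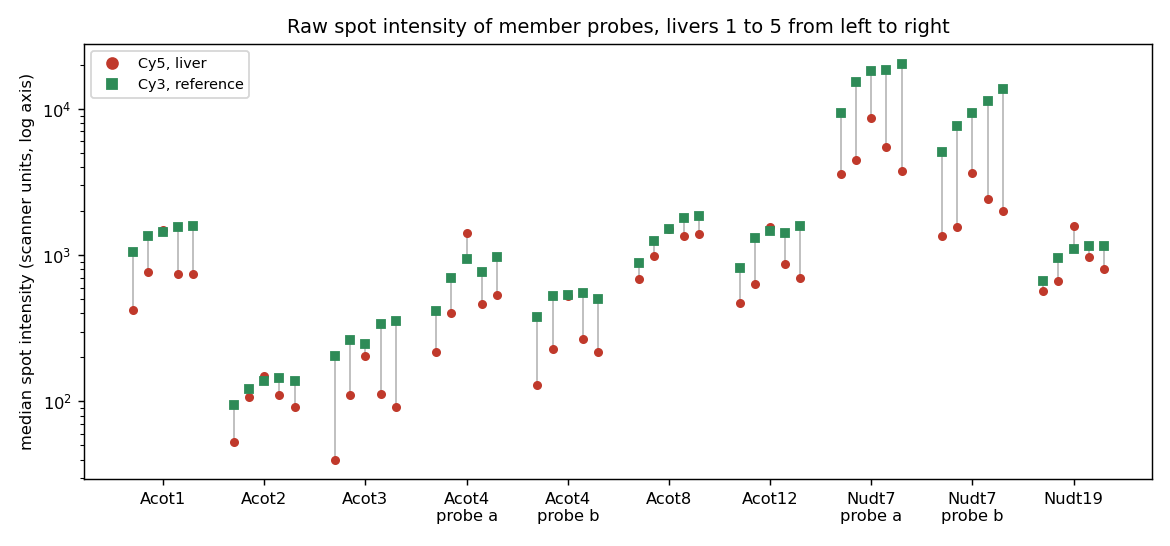
Median spot intensity as scanned (log axis, scanner units) of each member probe in Cy5 (liver, circles) and Cy3 (reference, squares), with livers 1 to 5 from left to right and a line joining the channels of a spot. The dye balance of the arrays is not yet corrected here, and intensities of different probes do not compare genes. In livers 2 to 5 the widest gap is that of a Nudt7 probe, and in liver 1 that of Acot3.

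Acot3, a peroxisomal thioesterase, had the lowest ratio among the Acot members. Its log2 ratios were -1.53, -0.98, -0.38, -1.03 and -1.05, with all livers below 0 and liver 3 nearest to it. The mean was -0.996 ± 0.41 (SD, n = 5), or 1.99-fold lower, just short of 2-fold, with a 95% interval from -1.31 to -0.69 and a limma adjusted p of 0.0017. The probe (A_51_P420489, NM_134246) was dim, with raw Cy5 intensities of 40, 111, 204, 112 and 91.5 over a local background between 21 and 24, and in liver 1 it was not well above background. Raw Cy3 intensities were 205, 263, 248, 337 and 353. Without liver 1 the mean was -0.86 (adjusted p = 0.00154), and without liver 3 it was -1.15 and past 2-fold (0.00117). With the processed intensities of the scanner software it was -2.04 (adjusted p = 0.0437). There liver 1 read -4.78 and the other livers between -1.82 and -0.55.

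Acot1, the cytosolic long-chain thioesterase, was lower in all 5 livers. Its log2 ratios were -1.23, -0.75, -0.15, -0.71 and -0.55. The mean was -0.68 ± 0.39 (SD, n = 5), or 1.60-fold lower, with a 95% interval from -0.98 to -0.37 and a limma adjusted p of 0.00727. Liver 1 was lowest and liver 3 nearest to the reference, as in Acot3. Its probe (A_51_P451574, NM_012006) gave raw Cy5 intensities of 421, 767, 1494, 740 and 738 and raw Cy3 intensities of 1046, 1349, 1439, 1551 and 1571.5. Cy3 was above Cy5 in all livers but liver 3.

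Acot4, a peroxisomal thioesterase of dicarboxylic acyl-CoAs such as succinyl-CoA, was measured by 2 probes. The brighter one (A_51_P396141, probe a) had log2 ratios of -0.74, -0.69, -0.34 and -0.31 in livers 1, 2, 4 and 5, with a mean of -0.52 ± 0.23 (SD, n = 4), or 1.44-fold lower, and a limma adjusted p of 0.0102. Its liver 3 spot was marked as an outlier and read 0.38 when kept, and the mean was then -0.35 and not called (adjusted p = 0.116). The other probe (A_52_P215170, probe b) had all 5 spots, at -1.24, -1.08, -0.23, -0.63 and -0.57, with a mean of -0.75 ± 0.41 (SD, n = 5), or 1.68-fold lower, and an adjusted p of 0.00558 in limma. Both probes carry the accession NM_134247 and placed livers 1, 2, 4 and 5 in the same order from lowest to highest. Probe b read lower than probe a by 0.26 to 0.50 in each liver that had both values.

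Acot12, which hydrolyses acetyl-CoA in the cytosol, was also below the reference in all 5 livers. Its log2 ratios were -0.68, -0.96, -0.12, -0.34 and -0.64. The mean was -0.55 ± 0.33 (SD, n = 5), or 1.46-fold lower, with a 95% interval from -0.81 to -0.28 and a limma adjusted p of 0.0101. Liver 2 was lowest here, and liver 3 was again nearest to the reference. Its probe (A_51_P414305, NM_028790) had raw Cy5 intensities between 474 and 1550 and raw Cy3 intensities between 812 and 1585.

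Acot8, a peroxisomal thioesterase of broad specificity, did not pass. Its log2 ratios were -0.31, -0.27, -0.21, -0.08 and 0.11, with a mean of -0.15 ± 0.17 (SD, n = 5), a 95% interval from -0.34 to 0.04 and a limma adjusted p of 0.203. A 2-fold difference lies outside that interval. Acot2, the mitochondrial matrix enzyme, had log2 ratios of 0.06, 0.13, 0.16, 0.19 and 0.07. The mean was 0.12 ± 0.06 (SD, n = 5), with a 95% interval from -0.0019 to 0.24 and a limma adjusted p of 0.125, and all 5 livers lay above 0. The Acot2 probe (A_52_P525183) was dim, with raw Cy5 intensities between 53 and 148 and raw Cy3 intensities between 94 and 144. The background correction pulls ratios of such dim spots towards 0, and with processed intensities the mean was 0.33, also without a call. Acot2 is a close paralog of Acot1, and all 5 of its ratios were above all 5 of Acot1.

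**Figure D3:**
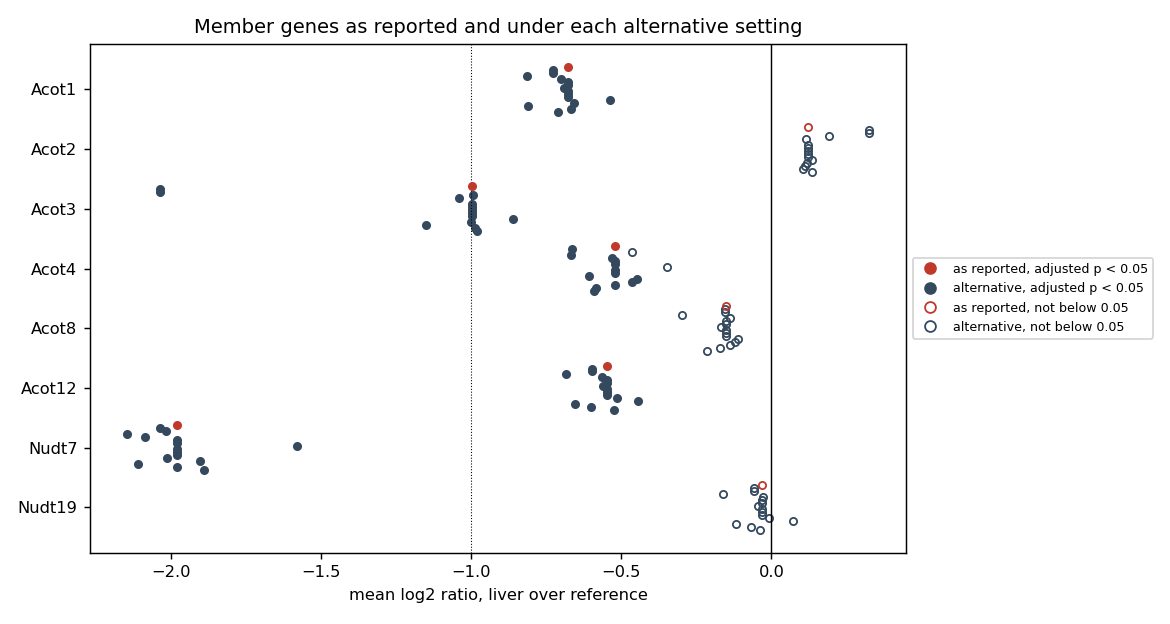
Mean log2 ratio of liver over reference (horizontal axis) of each member gene as reported and under each alternative setting, 1 point per setting, filled where the adjusted p was below 0.05. Acot3 at -2.04 comes from processed intensities and from the authors' deposited ratios. Acot1, Acot3, Acot12 and Nudt7 stay below 0 and filled wherever tested, and Nudt19 is the 1 gene with points on both sides of 0.

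The order of the livers was shared by some members and not by others. Of the 9 tested probes, which include both of Acot4, 6 were lowest in liver 1 and 6 were highest in liver 3. Acot12 and Nudt19 were lowest in liver 2 and Nudt7 in liver 5. Acot2 was highest in liver 4, and Acot8 and probe a of Acot4 were highest in liver 5. Probe a of Acot4 had no value in liver 3 and Nudt7 probe b none in liver 4, so their positions rest on the remaining livers. Over the 13705 named genes with a value in every liver, liver 1 was lowest in 21.6% and liver 3 highest in 20.4%. Array brightness moved with these positions, since the median background-subtracted Cy5 signal over all probes was lowest in liver 1 (78.4) and highest in liver 3 (177). After normalization the median log2 ratio of all named genes lay between -0.02 and -0.00474 in every liver. The part of array brightness in the members' order was not tested.

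The variance of each probe over the livers was tested against the variance that limma expects at its brightness (F test, upper tail). This test called 0 of 24009 probes (0.00%), those with Cy5 and Cy3 both well above background on every array, so it cannot separate the members, while 5.73% had an unadjusted p below 0.05. Of the 9 tested member probes 5 were among them, with adjusted p between 0.912 and 0.999, and 0 of the 9 had an unadjusted p below 0.05, the smallest being 0.06 for Acot3. The separate channels were also described. The Cy3 channel held 1 RNA on all arrays. Its normalized values were computed from Cy5 and Cy3 together, so its SD can hold more than technical spread. Since liver RNA was always in Cy5, dye noise and spread between livers cannot be told apart in Cy5. After quantile normalization of the array intensities, the SD over arrays of the 9 tested probes lay between 0.18 and 0.37 (log2) in Cy5 and between 0.07 and 0.28 in Cy3. It was larger in Cy5 for 9 of 9, as it was for 69.9% of all 31887 tested probes, where the medians were 0.21 and 0.15. Acot1 varied by 0.34 in Cy5 and 0.08 in Cy3, and Nudt19 by 0.31 and 0.07. For Nudt7 probe b the SDs were close, at 0.33 and 0.28.

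**Figure D4:**
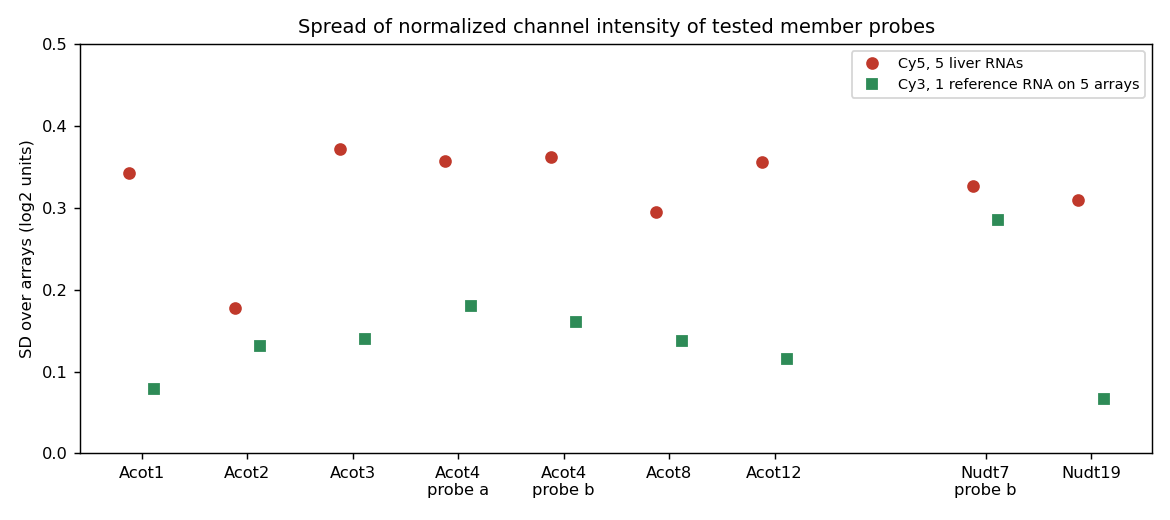
SD over arrays of the normalized log2 intensity of the 9 tested member probes, in Cy5 (5 liver RNAs) and Cy3 (1 reference RNA on all arrays). Spots marked as outliers are left out, so Acot4 probe a and Nudt7 probe b rest on 4 arrays. The Cy5 point is above the Cy3 point for each probe, and the 2 lie closest together for Nudt7 and Acot2.

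How alike 2 profiles were was measured as the root-mean-square difference of their log2 ratios over the 5 livers, each centred on its own mean. The pair with the most similar course among members with 5 values were Acot12 and Nudt19, at 0.07, although their means differed, followed by Acot1 and Acot3, at 0.10. Least alike among these members were Acot3 and Acot8, at 0.38. In pairs with values in only 4 livers, Acot4 (probe a) and Acot8 stood at 0.07, and Acot1 and Nudt7 at 0.40, the largest difference of all pairs. Searched against 12014 named genes that were well above background on every array in Cy5 and in Cy3, the 3 profiles nearest to Acot3, which had the largest SD of the 8 genes over all livers, were those of Lamp3 (0.04), Rtbdn (0.08) and Acot1 (0.10), where the median gene stood at 0.40. Both that SD and these distances include liver 1, where the Acot3 spot was not well above background in Cy5. Without liver 1 the SD of Acot3 was 0.32, below those of Nudt7 (0.37) and Acot12 (0.37). Those nearest to Acot1 were Ypel1 (0.08), the carboxylesterase gene Ces2e (0.08) and Csmd3 (0.08), against a median of 0.38. With 5 livers such likeness is a description.

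The other genes of acyl-CoA and CoA metabolism were set beside the members. Over all named genes tested, 13.0% lay below the reference and 14.5% above, and at 2-fold 0.429% were lower and 0.871% higher. The counts of each list below are to be read against these shares. Among 12 other thioesterase genes tested of 14 listed, 4 lay below the reference, 2 above, and their median log2 ratio was -0.14. Acot13, a mitochondrial thioesterase, was lowest at -0.72 ± 0.04 (n = 3, limma adjusted p = 0.00258). Acot5, the next peroxisomal gene in the chromosome 12 cluster, stood at -0.44 ± 0.13 (n = 5, adjusted p = 0.00472). Them5, a mitochondrial thioesterase, was highest at 0.74 ± 0.31 (n = 5, adjusted p = 0.0026), followed by the lysosomal enzyme gene Ppt1 at 0.37 ± 0.18 (n = 4, 0.0272), where another Ppt1 probe was at -0.0067.

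CoA synthesis and breakdown had 2 of 14 tested genes below, 1 above and a median of -0.16, where 13.0% of all named genes lay below and 14.5% above. Vnn1, a pantetheinase that recycles the vitamin part of CoA, stood at -0.90 ± 0.38 (n = 3, limma adjusted p = 0.00642), and the Nudix gene Nudt12 at -0.46 ± 0.25 (n = 5, 0.0109), with another Nudt12 probe at -0.05. Whether Nudt12 acts on CoA was not examined here. Slc5a6, which imports pantothenate, was at 0.28 ± 0.18 (n = 5, adjusted p = 0.0394). The kinase gene Pank2, at 0.10, did not pass.

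The acyl-CoA synthetases, which run the opposite reaction to the thioesterases, had 6 of 15 tested genes below, 1 above and a median of -0.19. Acsm5, a medium-chain synthetase gene, stood at -0.94 ± 0.45 (n = 4, limma adjusted p = 0.00512) and the acetyl-CoA synthetase gene Acss2 at -0.70 ± 0.27 (n = 5, 0.00218). Acsl1, the main long-chain synthetase gene of liver, varied most, from -1.27 in liver 1 to 0.09 in liver 3, and passed narrowly (mean -0.63, adjusted p = 0.0476). Slc27a1, a fatty acid transport protein, was higher at 0.47 ± 0.16 (n = 4, adjusted p = 0.00838), and Acsl3 at 0.03 did not pass. For carnitine transfer 0 of 7 tested genes passed in limma, while 6 of 7 were negative and the median was -0.19, with Crat at -0.41 ± 0.49 and Crot at -0.36 ± 0.30 lowest and Slc25a20 (-0.10) and Cpt1b (0.11, with another probe at -0.26) highest.

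Peroxisomal acyl-CoA oxidation had 9 of 19 tested genes below, 1 above and a median of -0.28. Both genes called at 2-fold, the thiolase gene Acaa1b at -1.70 ± 0.74 and the bifunctional enzyme gene Ehhadh at -1.03 ± 0.42 (n = 5 each, limma adjusted p = 0.00431 and 0.00168), were lowest in liver 1 (-2.73 and -1.46) and highest in liver 3 (-0.92 and -0.45), the positions that Acot1 and Acot3 also took. Acox2, a peroxisomal oxidase of bile acid intermediates, was higher at 0.29 ± 0.17 (n = 5, adjusted p = 0.0293), and Abcd2 at 0.12 ± 0.61 did not pass. Among acetyl-CoA handling genes 3 of 9 were below and 0 above, with a median of -0.38. Acss2 was lowest, and Hmgcs1 (-0.63 ± 0.81), Acat1 (0.05) and Slc16a1 (0.32 ± 0.53) did not pass.

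Of PPARA and its targets, 7 of 23 tested genes lay below, 1 above, and the median was -0.38. Pdk4, a kinase that restrains pyruvate oxidation, stood at -1.19 ± 0.46 (n = 5, limma adjusted p = 0.00138) on a probe well above background in Cy5 on 4 of 5 arrays, and was lowest in liver 3 (-1.64), unlike Acot1 and Acot3. Creb3l3, a hepatic transcription factor gene, was higher at 0.37 ± 0.23 (n = 5, limma adjusted p = 0.017). The P450 gene Cyp4a14 ran from -2.37 in liver 1 to 1.66 in liver 5 (mean -0.50 ± 1.75), and Fgf21, a hepatic hormone gene, reached 3.31 in liver 5 (mean 1.05 ± 1.33), and neither passed. No member of the thioesterase group was highest in liver 5 apart from Acot8 and probe a of Acot4, whose liver 3 spot was left out.

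**Figure D5:**
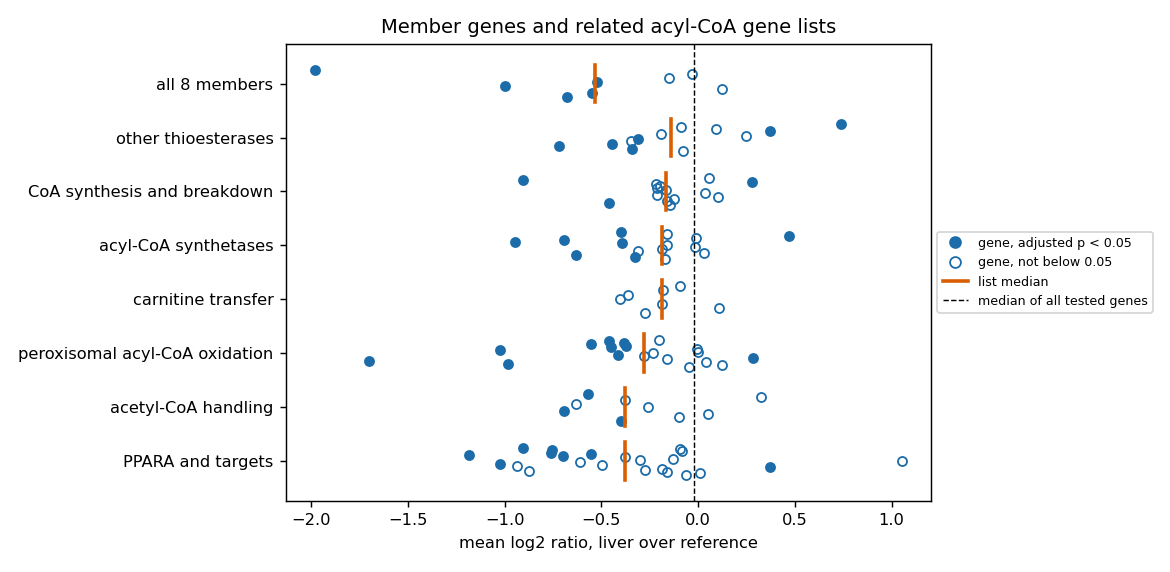
Mean log2 ratio of liver over reference (horizontal axis) of each tested gene in the member set and 7 related lists, filled where the adjusted p was below 0.05, with each list's median as a vertical bar. The dashed line is the median of all tested named genes at -0.02. The members' median of -0.53 lies further from it than the medians of the 7 lists, which run from -0.38 to -0.14.

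The tissue label was set against cell type markers, beside shares of 13.0% below and 14.5% above over all named genes tested. Hepatocyte markers had a median log2 ratio of 0.01 over 10 tested genes of 12 listed, with 1 below (Ass1, -0.58) and 2 above (Alb, 1.15, and Apoa1, 0.94). Their median background-subtracted signal was 29408 in Cy5 and 35288 in Cy3, beside 316 and 318 for all named genes tested. Both RNAs thus gave bright signal on these probes, although intensities of different probes do not compare genes. The summed background-subtracted signal of the hepatocyte markers lay between 371315 and 558088 in Cy5 and between 273298 and 445938 in Cy3. Kupffer cell and macrophage markers were lower (7 of 9 tested genes, median -0.52), with summed signals of 7636 to 10737 in Cy5 and 9995 to 15800 in Cy3. Sinusoidal endothelial markers were also lower (5 of 8, median -0.35), with sums of 2555 to 4546 and 3336 to 6296. All tested markers of these 3 lists were well above background in Cy5 on at least 1 array. Red blood cell markers had the lowest median of all marker lists, at -0.74, with 2 of 4 tested genes below and 0 above. Their median was lowest in liver 1, at -1.35. The medians of the remaining marker lists lay between -0.11 (stellate cell) and 0.15 (brain). In whole liver RNA, fewer cells of a type and less RNA per cell cannot be told apart, and the part of cell composition in the members' ratios was not tested.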

How the data were processed

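The scanner files hold median spot and local background intensity in both channels, not normalized, and background-subtracted and processed intensity, which the authors measured in Feature Extraction (Agilent, version 11.5.1.1 per the file headers). Median spot intensities were used. The log10 ratios deposited in the same files were not used. The authors' deposited table holds log2 ratios of liver over reference for 40599 probes, and between 99.6% and 99.7% of its values per array equalled log2 of processed Cy5 over Cy3 to a tolerance of 0.001, which settles scale and direction. Its column medians ran from -0.10 to -0.03, so it was not centred further.

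Background was corrected with normexp (offset 50) and dyes by loess within each array, giving no weight to control and outlier spots (limma 3.58.1, R 4.3.3). Outlier spots (2.32% to 4.05% per array) were then left out and spots of a probe averaged; 0 spots were saturated. Well above background were 77.3% to 81.2% of spots in Cy5 and 69.9% to 78.4% in Cy3. Ratios of pairs of arrays correlated across probes with r between 0.43 and 0.78. The number of arrays limits the precision. Probes were named through RefSeq accessions (GRCm38.p6): 24375 of 41174 probes matched. The arrays' design names another build, so no gene coordinates are given beyond the promoter windows.

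Means were tested against 0 with limma (intercept, intensity trend, robust prior, two-sided). The reference's own spread is left out, and with liver in Cy5 throughout a dye effect of a probe does not cancel. The lists, members and the naming rule were chosen with earlier results of these data known. The rule names, of each list, genes called at 2-fold, the 2 lowest and 2 highest and the most variable, and for the 2 most variable members the 3 nearest profiles.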

Additional observations from a re-analysis of the deposited data

How the results depend on the processing

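Over 15 alternatives, Nudt7 (from -2.14 to -1.89 for its reported probe, and -1.58 with outlier spots kept, where the brighter probe a is read instead), Acot1 (-0.81 to -0.54), Acot12 (-0.68 to -0.44) and Acot3 (-2.04 to -0.86, not tested under the filter on both channels) kept their direction and an adjusted p below 0.05 in limma. The count of members called lower at 2-fold was 1 and became 2, with Acot3 added, with processed intensities, with the authors' deposited ratios and with scaling between arrays (2 each), and it ranged from 1 to 2 when 1 liver was left out. Acot4 was not called by its brighter probe with outlier spots kept (-0.35, adjusted p = 0.116) or in the authors' deposited ratios (-0.46, 0.0612), both of which use its liver 3 spot. Nudt19 ranged from -0.12 to 0.07 when 1 liver was left out, with 0.0709 without liver 2. Members above the reference and members past the spread test stayed at 0 in every setting run. Over all named genes, 64 were lower and 130 higher at 2-fold, against 157 and 325 with processed intensities, 155 and 326 in the deposited ratios, 79 and 97 with median centring, and 82 higher with probes of a gene averaged. Without liver 4, 1049 were below and 1229 above in place of 1939 and 2156. Slide as a block was not run, since each array had its own slide. No paired analysis was possible because there is 1 group. Signal over background limits Acot2 and Acot3.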
